A study of Xenopus laevis with 96 samples.

Results

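Alcohol, aldehyde and short-chain dehydrogenases other than the main enzymes of retinoic acid synthesis were followed in Xenopus laevis gastrulae after a brief change in retinoic acid. The genes were chosen by symbol (adh, adhfe1, aldh, rdh, dhrs, sdr, hsd11b and hsd17b names), and 9 genes with such names, 8 of the retinoid pathway and the folate enzyme aldh1l1.L, were left out. Of 37 genes with a matching symbol 28 remained, out of 16322 genes with deposited expression values and 31430 genes with deposited counts. Because a symbol was given only to genes that passed the low-expression filter of the study, copies below it were not counted here. The 28 genes belong to 25 families, with 18 L copies, 9 S copies and 1 gene without a homeolog letter, and both copies of a family were present for aldh3a2, aldh6a1 and aldh7a1. X. laevis is allotetraploid, so that many genes exist as an L and an S homeolog, and reads from stretches that the 2 copies share could have been assigned to either.

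Vertebrate embryos make retinoic acid from retinol in successive oxidations, first to retinaldehyde by alcohol or short-chain dehydrogenases and then to the acid by aldehyde dehydrogenases. The same superfamilies hold many enzymes with other substrates: formaldehyde, fatty aldehydes, intermediates of amino acid breakdown, steroids and fatty acyl chains. Members of a superfamily share sequence and use NAD or NADP, but they do not form 1 pathway. Retinoic acid itself patterns the early axis, and genes such as cyp26a1 respond to it within hours.

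Whole wild-type embryos from 6 females, the clutches A to F, were divided over 4 groups. Embryos received 10 nM all-trans retinoic acid (RA), 50 µM 4-diethylaminobenzaldehyde (DEAB, an inhibitor of retinaldehyde dehydrogenases), 0.5% ethanol, or none of these agents (control) for 2 h. Treatment ended with a wash at st. 10.25, and pools of staged embryos were sampled 0, 1.5, 3 and 4.5 h later, which gave 96 libraries. RA and DEAB stocks were made in DMSO, and whether control embryos received this solvent is not stated in the sources used here. The stage labels moved from 10.25 at 0 h to between 12 and 12.5 at 4.5 h. Clutch A was labelled st. 11.5 at 1.5 h, when the others were at st. 11, and clutches B and C were labelled st. 11.5 at 3 h and st. 12 at 4.5 h, when the others were at st. 12 and st. 12.5. Each clutch is the offspring of 1 female. RA, DEAB and ethanol were set against the same control libraries, and the clutches used for sequencing had been selected for their RA response with a set of genes that included cyp26a1.L and hoxb4.S.

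Total counts ranged from 5528562 to 15869722 per library, the lowest being that of clutch D in control at 4.5 h. Of the markers of mesoderm, endoderm, neural tissue, epidermis and organizer that were looked for, each found in the deposited tables had counts in all libraries except myf5.L, which was at 0 in 1 library. The RA treatment raised the retinoid gene dhrs3.L, whose log2 fold change against control at 0 h was 2.21 ± 0.14 (SE; edgeR adjusted p = 3.54e-08). DEAB lowered dhrs3.L at 0 h (log2 fold change -0.85 ± 0.16, edgeR adjusted p = 0.0267). With ethanol it was lower than control as well (-0.58 ± 0.10, edgeR adjusted p = 0.0307). Both differences rest on the same control libraries, and DEAB was not set against ethanol, so whether the fall was particular to DEAB was not tested. In whole-embryo RNA, a smaller number of cells of a type and less RNA per cell cannot be told apart, and CPM (counts scaled to a common library size) are relative to the other RNA of a library.

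Most of these dehydrogenase genes fell while control embryos passed through gastrulation. At 4.5 h, 24 of 28 were lower than at 0 h, 3 were higher and 1 did not pass the test (edgeR quasi-likelihood test with the clutch as a block, adjusted p under 0.05). Over all 20295 genes tested the corresponding shares were 43.2% lower and 39.6% higher. These shares are also the background for the counts at 4.5 h in control that are given below for smaller groups of members. The members were drawn from the 16322 genes that passed the filter of the study. The shares of all genes, here and below, were not limited to those. The median log2 fold change was -0.96 for the 28 genes and -0.08 for all genes tested. With a change of at least 2-fold in addition, 13 members were lower and 1 was higher, beside 22.9% and 24.4% of all genes. The fall was gradual. At 1.5 h 14 members were lower and 1 higher, beside 24.5% and 23.8% of all genes, and at 3 h 21 were lower and 2 higher, beside 39.5% and 35.1%.

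**Figure D1:**
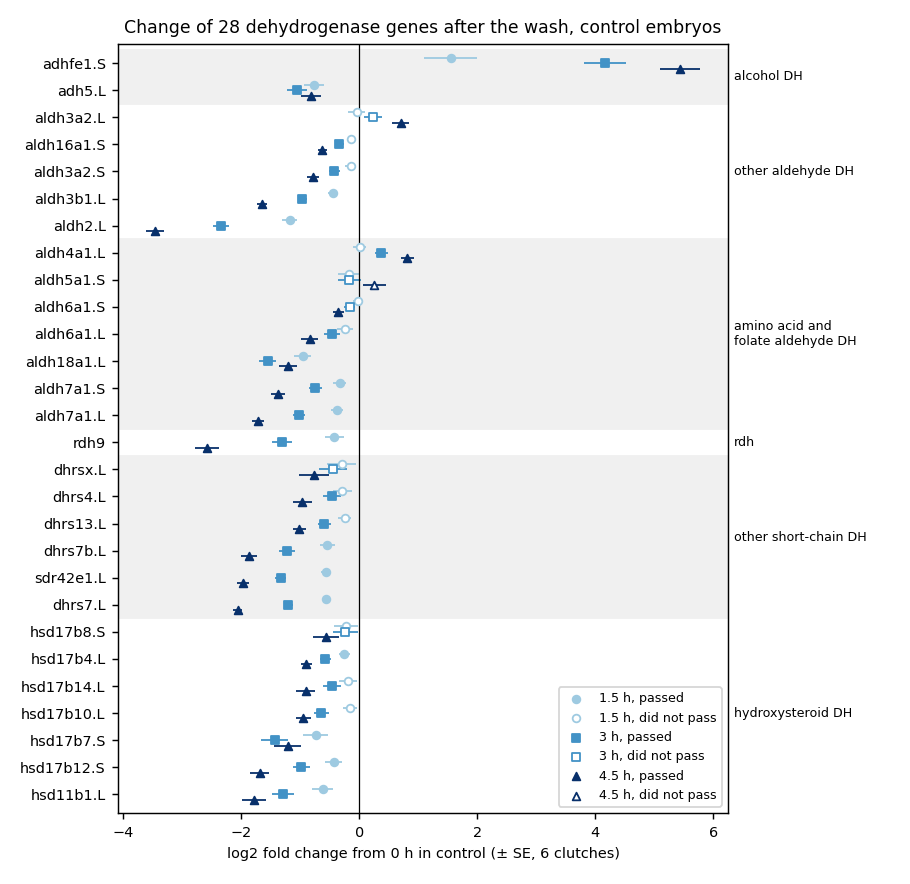
Log2 fold change (x axis) of each of 28 dehydrogenase genes (y axis, grouped by role) from 0 h to 1.5, 3 and 4.5 h in control embryos, with bars for the SE over 6 clutches; filled symbols passed the edgeR test. At 4.5 h, 24 genes lie to the left of 0 past the threshold, and adhfe1.S stands alone at 5.44 on the right.

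The 2 alcohol dehydrogenase members moved in opposite directions. The gene adhfe1.S (Xelaev18033772m) encodes an iron-dependent enzyme that in mammals oxidises 4-hydroxybutyrate and transfers the hydrogen to 2-oxoglutarate. In control embryos it had 0 to 8 counts per library at 0 h and 43 to 266 counts at 4.5 h. Its CPM was 0 to 0.605 with a median of 0.228 at 0 h, 0.0717 to 1.98 with a median of 0.643 at 1.5 h, 1.46 to 10.6 with a median of 3.28 at 3 h, and 3.82 to 24.2 with a median of 8.71 at 4.5 h. Every library at 4.5 h was above every library at 0 h. The fitted log2 fold change was 5.44 ± 0.34 (SE, n = 6 clutches; edgeR adjusted p = 3.58e-12), the largest rise among the members, and the ratio of the mean CPM values was 42.5. With 23 counts in all 6 libraries at 0 h, the size of this ratio is less certain than its direction.

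The other alcohol dehydrogenase, adh5.L, encodes the glutathione-dependent enzyme that clears formaldehyde. Its CPM in control was 8.22 to 19.3 (median 13) at 0 h and 5.17 to 9.78 (median 7.94) at 4.5 h, so that the groups overlapped. It fell by 0.82 ± 0.17 on the log2 scale (edgeR adjusted p = 0.000151), after a fall of 1.05 ± 0.17 at 3 h. Clutch A did not share the change, with a within-clutch difference of 0.01, while the other clutches were lower at 4.5 h by log2 differences of -0.56 to -1.75.

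Among aldehyde dehydrogenases outside amino acid metabolism, 4 of 5 fell and 1 rose by 4.5 h, with a median log2 fold change of -0.78. The largest fall among all members was that of aldh2.L (Xelaev18007851m), the mitochondrial enzyme that oxidises acetaldehyde. Its CPM in control was 19.1 to 30.4 (median 26.9) at 0 h, 7.52 to 16.9 (median 10.6) at 1.5 h, 3.83 to 8.41 (median 4.38) at 3 h and 1.78 to 3.18 (median 2.30) at 4.5 h. The groups at 0, 1.5 and 4.5 h did not overlap, and every clutch fell at a similar rate, with within-clutch changes between -3.67 and -3.03 on the log2 scale. The fitted change was -3.46 ± 0.15 (edgeR adjusted p = 1.98e-14), an 11.0-fold fall.

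The gene aldh3b1.L, whose product acts on lipid-derived aldehydes, had the highest mean count of the members, 823 per library. It went from 79.2 to 120 CPM (median 100.4) at 0 h to 24 to 44.9 CPM (median 27.2) at 4.5 h, without overlap, a log2 change of -1.65 ± 0.09 (edgeR adjusted p = 2.17e-13). The gene next in count, aldh16a1.S, encodes a protein whose mammalian form is thought not to be catalytic. Its control CPM was 17.6 to 89.6 (median 66.5) at 0 h and 15.4 to 49.8 (median 41.5) at 4.5 h, and the change of -0.62 ± 0.08 (edgeR adjusted p = 3.24e-07) was smaller than its range over clutches, 2.11 on the log2 scale.

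Fatty aldehyde dehydrogenase, the product of aldh3a2, oxidises long-chain aldehydes, and its homeologs moved apart. From 0 to 4.5 h in control the L copy rose by 0.70 ± 0.15 on the log2 scale (edgeR adjusted p = 0.000197) and the S copy had a change of -0.78 ± 0.10 (edgeR adjusted p = 1.50e-07). Within each clutch the change of the L copy exceeded that of the S copy, by 0.71 to 2.05 log2 units (mean 1.47 ± 0.49, SD, n = 6), and the same order held in all 6 clutches of the RA, DEAB and ethanol groups. The L copy did not rise in clutch E, where it was 23.4 CPM at 0 h against 3.83 to 9.32 CPM in the others, and ended at 19.9 CPM. On the scale of the deposited log2 values the mean difference was 0.84.

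The other pairs with both copies fell together. Valine breakdown passes through the product of aldh6a1, and its L copy had a log2 change of -0.84 ± 0.14 and its S copy of -0.36 ± 0.09 (edgeR adjusted p = 1.41e-05 and 0.00113). The difference between the copies ran from -1.34 to 0.02 over the clutches, so that in clutches A and B they fell about equally. Lysine breakdown uses the product of aldh7a1, whose L copy had a change of -1.72 ± 0.10 and whose S copy one of -1.37 ± 0.12 (edgeR adjusted p = 1.54e-12 and 4.07e-10). The difference, L minus S, was -0.33 ± 0.30 (SD, n = 6) on the log2 scale and below 0 in 6 of 6 clutches, but close to 0 in clutches B and E. It was below 0 in 5 of 6 clutches with RA, 6 of 6 with DEAB and 5 of 6 with ethanol. On the deposited log2 values in control it was below 0 in 5 of 6.

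**Figure D2:**
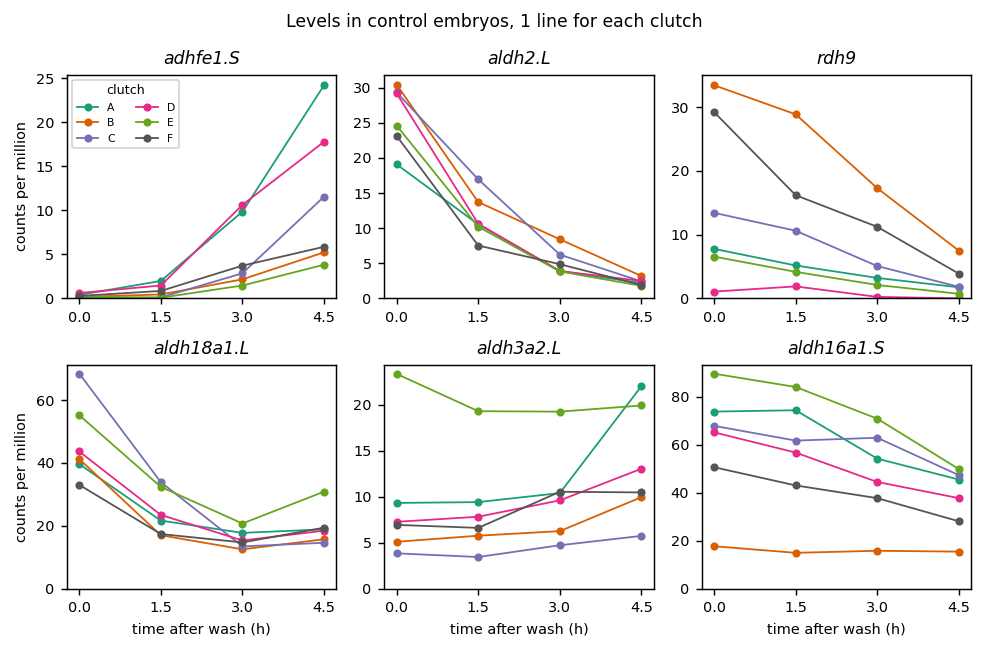
CPM (y axis, linear) against time after the wash in hours (x axis) in control embryos for 6 of the genes, with 1 line for each clutch. The lines of aldh2.L run together from 19.1 to 30.4 CPM down to 1.78 to 3.18 CPM, while those of rdh9 keep the same order of clutches at all times. Lines of aldh3a2.L and aldh16a1.S are spread widely between clutches, and some of them cross.

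Of the 7 aldehyde dehydrogenases of amino acid metabolism, 5 fell and 1 rose by 4.5 h. The 2 enzymes of proline metabolism went in opposite directions. The gene aldh18a1.L encodes the enzyme that makes the proline precursor pyrroline-5-carboxylate, and its CPM in control was 33.0 to 68.5 (median 42.5) at 0 h, 12.5 to 20.7 (median 15) at 3 h and 14.6 to 30.9 (median 18.6) at 4.5 h. The levels at 0 h were above all of those at 3 and 4.5 h, and the log2 change was -1.55 ± 0.15 at 3 h and -1.21 ± 0.15 at 4.5 h (edgeR adjusted p = 7.87e-09 and 1.68e-07). The gene aldh4a1.L encodes the enzyme that oxidises this intermediate in proline breakdown. It was at 21.2 to 34.7 CPM (median 27.7) at 0 h and 36.6 to 76.0 CPM (median 44.7) at 4.5 h, again without overlap, a rise of 0.81 ± 0.11 on the log2 scale (edgeR adjusted p = 5.27e-07). The member that did not pass was aldh5a1.S, the succinic semialdehyde dehydrogenase of GABA breakdown, with a log2 fold change of 0.26 ± 0.19 (edgeR adjusted p = 0.214). Its level was higher at 4.5 h in 3 clutches and lower in 3, and clutch A reached 44.0 CPM where the median was 13.9.

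The gene rdh9 (Xelaev18013410m) was the only member left with a retinol dehydrogenase name, and the mouse enzyme so named acts on retinols and steroids. It fell by 2.58 ± 0.20 on the log2 scale (edgeR adjusted p = 8.50e-11). Its control CPM was 1.06 to 33.5 (median 10.6) at 0 h and 0 to 7.49 (median 1.77) at 4.5 h, so that the groups overlapped although each clutch fell, with changes of -2.06 to -2.93 log2 units. In clutch D the gene went from 14 counts to 0, so the size of the change in that clutch depends on the prior count of 2 in log2 CPM.

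All 6 other short-chain dehydrogenases and all 7 genes with hydroxysteroid dehydrogenase names were lower at 4.5 h, with median log2 changes of -1.44 and -0.95. The largest falls in the former were those of dhrs7.L (-2.06 ± 0.08, edgeR adjusted p = 2.36e-15), a membrane reductase of steroids and retinals, sdr42e1.L (-1.97 ± 0.10) and dhrs7b.L (-1.86 ± 0.14), which serves ether lipid synthesis in peroxisomes. CPM of dhrs7.L went from 50.6 to 100.5 (median 73.0) to 11.8 to 25.2 (median 16.1), with no overlap between the times. The smallest was that of dhrsx.L (-0.77 ± 0.25, edgeR adjusted p = 0.00867), which acts in dolichol synthesis and had the lowest mean count of the members, 27.2 per library.

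Of the hydroxysteroid group, hsd11b1.L encodes the reductase that activates glucocorticoids, and hsd17b12.S an enzyme that elongates very long fatty acids. Their log2 changes were -1.79 ± 0.20 (edgeR adjusted p = 3.71e-08) and -1.68 ± 0.16 (edgeR adjusted p = 3.52e-09). CPM of hsd11b1.L was low throughout, 1.74 to 6.64 (median 3.45) at 0 h and 0.414 to 1.64 (median 1.04) at 4.5 h, and the lowest library at 4.5 h held 2 counts. The gene hsd17b7.S, of cholesterol synthesis, had a lower fitted level at 3 h than at 4.5 h. Its log2 change was -1.43 ± 0.22 at 3 h and -1.22 ± 0.22 at 4.5 h (edgeR adjusted p = 7.04e-06 and 3.90e-05). The other 4 genes of the group fell by 0.90 ± 0.09 (hsd17b4.L), 0.95 ± 0.12 (hsd17b10.L), 0.91 ± 0.16 (hsd17b14.L) and 0.57 ± 0.21 (hsd17b8.S) on the log2 scale, the last with an edgeR adjusted p of 0.0196 that became 0.105 without clutch D and 0.111 without clutch E.

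Among the members that fell, adh5.L, aldh18a1.L and hsd17b7.S had a lower fitted level at 3 h than at 4.5 h. In a contrast added after seeing the data, their log2 changes from 3 to 4.5 h were 0.23 ± 0.18, 0.34 ± 0.15 and 0.22 ± 0.24, and none passed (edgeR adjusted p = 0.295, 0.0728 and 0.467). Over this last interval 16 members fell and 3 rose, beside 25.0% and 21.9% of all genes, and the risers were adhfe1.S, aldh3a2.L and aldh4a1.L.

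Of the 8 retinoid genes left out by the rule, 5 rose and 3 fell from 0 to 4.5 h in control, beside 39.6% and 43.2% of all genes. Their median log2 fold change was 0.48, beside -0.08 for all genes tested. The risers included aldh1a2.L (0.48 ± 0.09) and rdh10.L (1.37 ± 0.10), which act in retinoic acid synthesis. Another was dhrs3.L (2.48 ± 0.19), the reductase that returns retinaldehyde to retinol. The remaining risers were aldh1a3.L (1.73 ± 0.39) and rdh14.L (0.48 ± 0.10). Those that fell were rdh10.S (-0.82 ± 0.08), the other copy of rdh10, sdr16c5.L (-0.74 ± 0.12) and rdh13.L (-3.17 ± 0.36). The folate enzyme aldh1l1.L, also left out, rose by 3.19 ± 0.11. These counts are a description, and no test compared the lists.

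The same course was seen within each of the other groups, which had their own libraries at 0 and 4.5 h. In RA-treated embryos 24 members were lower and 4 higher at 4.5 h, beside 43.0% and 39.9% of the 20319 genes tested. In DEAB-treated embryos 24 were lower and 3 higher, beside 43.3% and 40.3% of 20397 genes, and in ethanol-treated embryos 24 were lower and 3 higher, beside 43.2% and 40.2% of 20330 genes. The median log2 change of the members was -0.92 in RA, -0.82 in DEAB and -0.89 in ethanol. The additional riser with RA was aldh5a1.S, at 0.35 ± 0.15 on the log2 scale, beside 0.27 ± 0.14 in DEAB and 0.32 ± 0.17 in ethanol, which did not pass. The rise of adhfe1.S was 5.49 ± 0.41 in RA, 5.41 ± 0.53 in DEAB and 4.75 ± 0.36 in ethanol, and the fall of aldh2.L was -3.42 ± 0.13, -3.30 ± 0.13 and -3.66 ± 0.16.

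**Figure D3:**
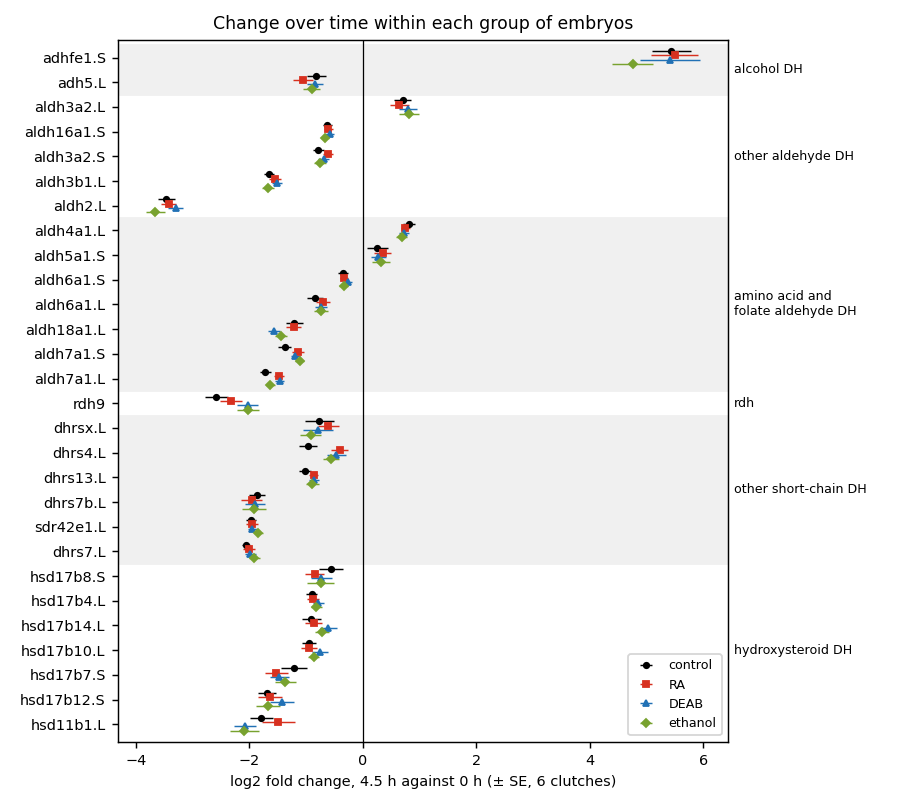
Log2 fold change from 0 to 4.5 h (x axis) of the 28 genes (y axis) within control, RA, DEAB and ethanol embryos, with bars for the SE over 6 clutches. The 4 symbols of a gene lie close together, between 4.75 and 5.49 for adhfe1.S and between -3.66 and -3.30 for aldh2.L.

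A test of whether the course over time differed between control, RA and DEAB embryos called 0 of 28 members and 0.00453% of the 22092 genes tested (6 interaction terms, edgeR). The smallest unadjusted p among members was 0.0135, for rdh9. At an unadjusted p under 0.05 the test counted 1 of 28 members and 270 of 22092 genes, and DESeq2 also called 0 members. The retinoid gene dhrs3.L did not pass either (edgeR adjusted p = 0.46), although its log2 difference between RA and control was 2.21 at 0 h and 0.36 at 4.5 h. The absence of calls therefore does not show that the course of the members was unchanged.

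Set against control at each time point, RA changed none of these genes past the threshold. The members called were 0 of 27 at 0 h and 0 of 28 at 1.5, 3 and 4.5 h, beside 0.537%, 0.655%, 0.160% and 0% of all genes tested at these times. At 0 h adhfe1.S had too few counts to be tested. Unadjusted p values under 0.05 were seen for 7, 3, 1 and 2 members, or 25.9%, 10.7%, 3.57% and 7.14% of those tested, beside 19.5%, 11.7%, 6.81% and 7.38% of all genes (1458 genes at 4.5 h). DESeq2 called 0 members at any time point. The smallest p was that of adh5.L at 0 h, with a log2 difference of 0.27 ± 0.08 (edgeR adjusted p = 0.104) and a higher level than in control in 5 of 6 clutches. At 1.5 h the same gene had a difference of -0.27 ± 0.13 (edgeR adjusted p = 0.415), lower in 5 of 6 clutches. The next was aldh18a1.L at 3 h, at 0.27 ± 0.09 (edgeR adjusted p = 0.475), higher in 5 of 6 clutches. Fitted differences of the members reached from -0.44 to 0.47 over the 4 time points, with SEs of 0.04 to 0.29. For adhfe1.S the difference from control was 0.47 ± 0.29 at 1.5 h, -0.31 ± 0.28 at 3 h and -0.13 ± 0.16 at 4.5 h. The paper counts adhfe1 among enzymes that preferentially reduce retinaldehyde, and describes it as downregulated later after RA, from its own normalised data. In the fits used here its differences at 3 and 4.5 h were negative but did not pass. Median CPM of adhfe1.S at 3 h was 3.28 in control, 1.89 in RA and 2.38 in DEAB. At 4.5 h the medians were 8.71, 6.90 and 7.14, so that DEAB embryos were below the same control libraries as well. By mean CPM at 4.5 h DEAB was not lower, at 11.55 beside 11.42 in control.

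DEAB also changed none of them past the threshold in the fit of all clutches. The members called were 0 at 0, 1.5, 3 and 4.5 h, beside 2.37%, 0%, 0.0361% and 0.263% of all genes, and 7, 1, 0 and 3 members had unadjusted p values under 0.05, or 25.9%, 3.57%, 0% and 10.7% of those tested, beside 22.3%, 7.75%, 9.87% and 10.5% of all genes (1514 genes at 1.5 h). DESeq2 called 0 members. The smallest p values were those at 0 h of dhrs4.L, a peroxisomal carbonyl and retinal reductase, with a log2 difference of -0.28 ± 0.09 (edgeR adjusted p = 0.0797), lower in 6 of 6 clutches, and of aldh2.L, with 0.23 ± 0.08 (edgeR adjusted p = 0.0937), higher in 5 of 6. The exception for aldh2.L, adh5.L and aldh18a1.L at 0 h was clutch C, where the differences were -0.13, -0.19 and -0.18. Without clutch C these 3 genes passed as higher with DEAB, at 0.29 ± 0.07, 0.30 ± 0.07 and 0.23 ± 0.06 (edgeR adjusted p = 0.00845, 0.0138 and 0.0120). In that fit 3 of 27 members and 13.2% of all genes were called, in place of 2.37% with all clutches, so that the members' share was near the background. With RA the log2 differences of the same genes at 0 h in the fit of all clutches were 0.18, 0.27 and 0.16, and with ethanol 0.20, 0.14 and 0.15, none of which passed. All of these rest on the same 6 control libraries.

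The direct comparison of RA with DEAB, which uses no control library in its difference, called 1 member. At 1.5 h rdh9 was lower in RA than in DEAB embryos, with a log2 difference of -0.66 ± 0.15 (edgeR adjusted p = 0.0265). Its CPM at 1.5 h was 0.349 to 22.9 (median 6.55) in RA and 0.828 to 26.2 (median 13.1) in DEAB, beside 1.88 to 28.9 (median 7.89) in control. The groups overlapped widely, and in clutch D the level rested on 3 counts in RA and 8 in DEAB. RA was below DEAB in 6 of 6 clutches, with differences of -0.19 to -1.01 log2 units (exact sign-flip test, two-sided, p = 0.0312, the smallest that 6 clutches can give). The gene was chosen by its edgeR call on these same libraries, so this p is not separate support. Set against control, the difference was -0.27 ± 0.15 with RA and 0.38 ± 0.15 with DEAB (edgeR adjusted p = 0.501 and 0.596). Over the time points 0, 1, 0 and 0 members were called, beside 0.464%, 1.04%, 0.969% and 0.815% of all genes tested. Unadjusted p values under 0.05 were seen for 1, 2, 2 and 1 members, or 3.70%, 7.14%, 7.14% and 3.57% of those tested. The shares of all genes were 5.04%, 7.40%, 7.29% and 7.79%. At 0, 3 and 4.5 h the difference of rdh9 was 0.13, -0.14 and -0.14, and the call at 1.5 h was lost without clutch A, C, E or F (edgeR adjusted p = 0.127, 0.170, 0.141 and 0.0592).

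**Figure D4:**
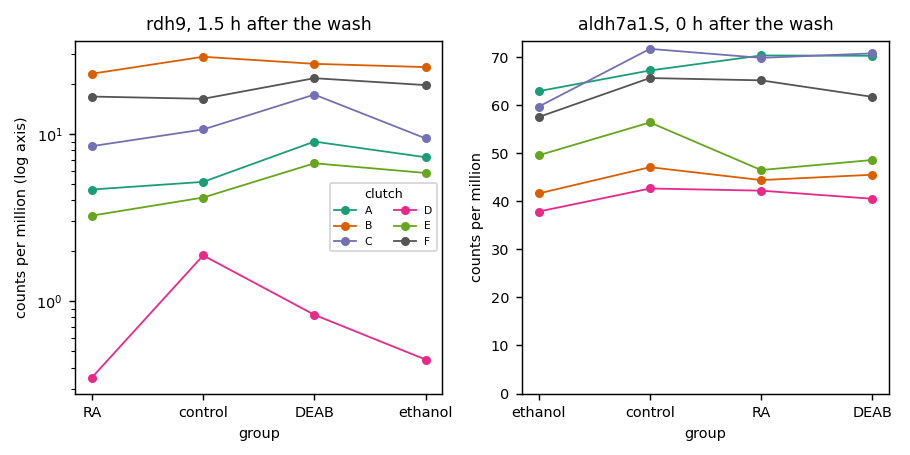
CPM of rdh9 at 1.5 h (left, log axis) and of aldh7a1.S at 0 h (right, linear axis) in each group (x axis), with 1 line for each clutch. RA lies below DEAB for rdh9 in all 6 clutches, and ethanol lies below control for aldh7a1.S in all 6.

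With 0.5% ethanol 1 of 27 members tested was called at 0 h, beside 2.89% of all genes, a share near the background. This gene, aldh7a1.S (Xelaev18010738m), was at 37.9 to 62.9 CPM (median 53.6) with ethanol and 42.7 to 71.7 CPM (median 61) in control at that time. The groups overlapped, and the ethanol library was lower in each of 6 clutches, by log2 differences of -0.10 to -0.26 (exact sign-flip test, two-sided, p = 0.0312). This gene too was chosen by its edgeR call on the same libraries, so this p is not separate support. The fitted difference was -0.19 ± 0.04 (edgeR adjusted p = 0.0394), a 1.14-fold difference. The counts of members called were 1, 0, 0 and 0 at the 4 time points, beside 2.89%, 0.0650%, 0% and 0.00531% of all genes, with 3, 1, 1 and 0 members at an unadjusted p under 0.05. The latter were 11.1%, 3.70%, 3.57% and 0% of the members tested, beside 22.3%, 9.20%, 4.83% and 6.41% of all genes (901 genes at 3 h). The call was lost on leaving out clutch A, C, D, E or F, with edgeR adjusted p values between 0.0506 and 0.147. The L copy aldh7a1.L, aldh2.L and the alcohol dehydrogenase adh5.L did not pass with ethanol, and aldh2.L was at 0.20 ± 0.07 at 0 h (edgeR adjusted p = 0.137).

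Several members differed widely between clutches. Each clutch came from 1 female, so differences between females and differences in the handling of a clutch cannot be told apart. The mean of log2 CPM over the 16 libraries of a clutch had a range over the 6 clutches of 1.05 in the median member, beside 0.84 in the median of 22365 genes, and the range of rdh9 was 4.80, exceeded by 0.528% of all genes. Clutch B had the highest and clutch D the lowest rdh9 level in 16 of 16 groups, a 27.8-fold difference. In control at 0 h the CPM of rdh9 was 7.77 in clutch A, 33.5 in B, 13.4 in C, 1.06 in D, 6.56 in E and 29.3 in F. In RA embryos at the same time it was 7.74 in A, 35.8 in B, 8.92 in C, 1.48 in D, 7.69 in E and 32.6 in F, the same order of clutches. In ethanol embryos it was 7.46 in A, 32.2 in B, 6.11 in C, 1.54 in D, 7.59 in E and 28.7 in F, so that B and F were again highest and D lowest, while C and E had changed places.

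The gene adhfe1.S came next, with a range of 2.42. Clutches A and D had its 2 highest levels in 14 of 16 groups. At 4.5 h in control its CPM was 24.2 in A, 17.8 in D, 11.6 in C, 5.86 in F, 5.23 in B and 3.82 in E. In ethanol embryos at that time it was 23.3 in A, 14.3 in D, 11.2 in C, 7.16 in F, 6.78 in B and 3.55 in E, the same order. The order differed in RA embryos, at 19.3 in D, 18.7 in A, 7.28 in C, 6.53 in E, 6.46 in B and 3.74 in F. It differed also in DEAB embryos, at 25.8 in A, 21.1 in D, 9.38 in C, 4.91 in E, 4.13 in F and 3.99 in B. In each of the 4 groups A and D were above C, and B, E and F were lower still. At 4.5 h clutches A, D, E and F carried the stage label 12.5 and clutches B and C the label 12. At 1.5 h clutch A was labelled st. 11.5, when the others were at st. 11. Whether stage or its timing bears on these levels was not tested.

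For some other members the same clutch was lowest or highest in 16 of 16 groups. The level of aldh16a1.S was lowest in clutch B in 16 of 16 groups, at 17.6 CPM in control at 0 h where the next clutch had 50.6 CPM. The level of aldh3a2.L was lowest in clutch C in 16 of 16 groups, hsd11b1.L was highest in clutch B in 16, and hsd17b4.L, the peroxisomal enzyme of fatty acid oxidation, was highest in clutch E in 16, at 39.6 CPM beside 22.3 to 26.4 CPM in control at 0 h. At the other end aldh6a1.S and aldh2.L had ranges of 0.35 and 0.40, smaller than those of 93.5% and 90.3% of all genes. In the log2 values deposited by the authors, which had been corrected for batch, the range of rdh9 over clutches was 0.0951 in place of 4.87 on log2 CPM of the same 72 libraries, and that of the median member was 0.0252 in place of 1.05, so that these differences can be read from the counts only.

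**Figure D5:**
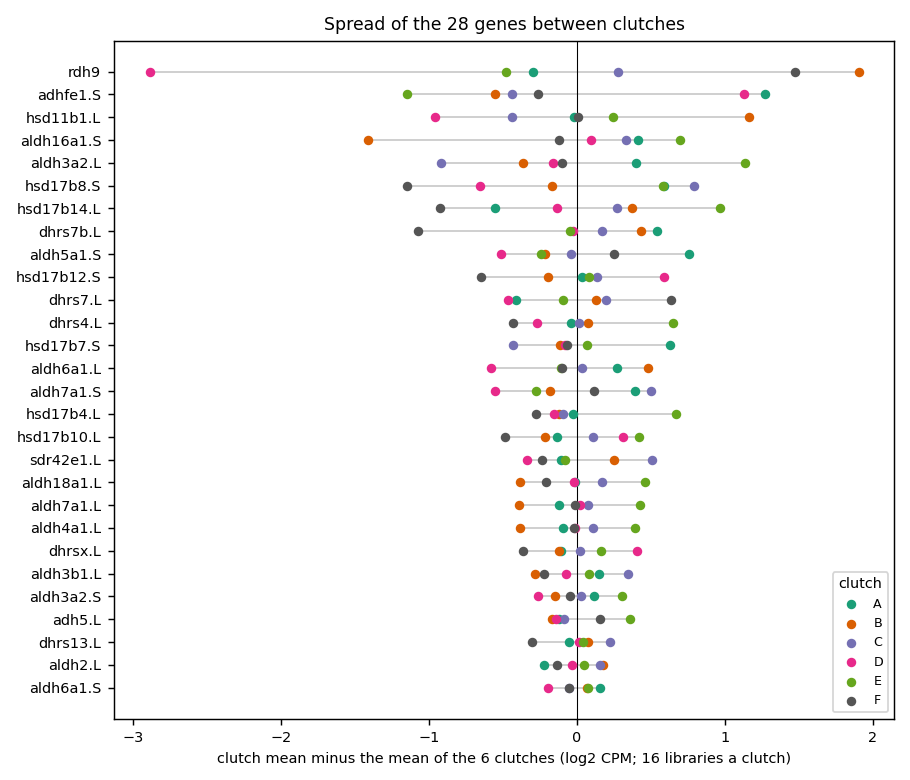
Mean log2 CPM of each clutch over its 16 libraries, as a difference from the mean of the 6 clutches (x axis), for the 28 genes (y axis, ordered by range). The points of rdh9 span 4.80 log2 units from clutch D to clutch B, and those of aldh6a1.S span 0.35.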

How the data were processed

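Counts per gene were deposited by the authors for 96 libraries. Alignment used STAR and the X. laevis 9.1 genome, and genes were counted with verse. The log2 values deposited by the authors for 72 libraries (control, RA and DEAB) were made with the regularised log of DESeq2, ComBat batch correction, a filter on low expression and quantile normalisation, and supplied the gene symbols and 1 alternative test. Because the correction removed most differences between clutches, levels and tests were taken from the counts. Members and lists were chosen with earlier results of these data known, and 28 of 28 symbols matched the RefSeq table of assembly Xenopus_laevis_v10.1, from which no coordinate was taken.

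Counts were tested with edgeR 4.0.16 (TMM, filterByExpr, quasi-likelihood F test, Benjamini-Hochberg over all genes, threshold 0.05) with clutch as a block, in fits of 24 libraries of a group over time, 18 libraries of a time point for RA and DEAB, 12 for ethanol, and 72 for the interaction. SEs were derived from the F statistic. CPM used TMM factors, and log2 CPM a prior count of 2. The clutch pairs the samples because embryos of 1 female were divided over all groups. In 144 pairs of samples that shared clutch and time the deviations from the group means correlated at 0.50 to 0.87, and 0 of 240 pairs of replicates were identical.

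Named were the called rises and the 10 largest falls from 0 to 4.5 h in control, called members of each treatment contrast (where none was called, the 2 with the smallest p), adhfe1.S, aldh2.L, adh5.L, the 2 highest and 2 lowest mean counts, and the 5 largest clutch ranges. No homeolog pair differed by over 1 on the log2 scale in all 6 clutches, and the 3 pairs and other members were named after their values were seen. On simulated counts edgeR called 200 of 200 genes changed 2-fold between 0 and 4.5 h in control, and 194 of 200 for RA against control at 0 h. The simulation gave all genes the same spread, held no clutch effect and changed no gene with a low mean count. It tried no change smaller than 2-fold, so it does not show how well smaller differences would be found. Alternatives were DESeq2 1.42.0, no filter, no block, a 2-fold threshold, limma 3.58.1 on the deposited log2 values, other sets of libraries in a fit, another prior count, and leaving out each clutch.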

Additional observations from a re-analysis of the deposited data

Results flagged for a closer look

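Single libraries far from the other 5 of their group (Dixon's test, 95%) were found in 37 of 448 groups of 6 over the 28 genes, or 8.26%. Chance flags about 1 in 20 independent groups, but the 16 groups of a gene came from the same 6 clutches and are not independent. The number of such groups out of 16 was 8 for hsd17b4.L, which was highest in clutch E in 16. It was 7 for aldh16a1.S, lowest in clutch B in 16, and 6 for dhrs7b.L, lowest in clutch F in 15. It was 3 for aldh5a1.S and dhrs13.L, 2 for dhrs4.L and hsd17b7.S, and 1 for aldh18a1.L, aldh3a2.L, aldh3b1.L, aldh4a1.L, hsd11b1.L and hsd17b10.L. Among 30 within-clutch changes tested in this way, the change of dhrs7b.L from 0 to 4.5 h in control in clutch D, -2.70 on the log2 scale, lay apart from the other clutches, which had changes from -1.83 to -1.55. This clutch also gave the library with the fewest counts, control at 4.5 h, and its part in the result was not tested.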

How the results depend on the processing

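The counts of members that changed from 0 to 4.5 h in control moved by over 1.5 times in no alternative run, other than the added 2-fold threshold, which left 13 lower and 1 higher, and none of the named changes reversed. Of the 27 called changes at 4.5 h in control, DESeq2 and the fit with no filter kept 27 past the threshold, limma on the deposited log2 values 26, and leaving out a clutch 26 or 27. Without the replicate block, which removes the pairing by clutch, 23 stayed past the threshold, members higher at 4.5 h in RA were 2 in place of 4, RA against DEAB and ethanol against control had 0 calls in place of 1 each, and the added contrast of 4.5 h with 3 h in control had 0 higher and 5 lower in place of 3 and 16. Without clutch C that contrast had 5 higher. The call of rdh9 was also lost in limma on the deposited log2 values, where RA against DEAB had 0 calls. With all 24 libraries of a time point in 1 fit, ethanol against control had 2 calls, aldh7a1.S and aldh3a2.S. Leaving out each clutch gave 0 to 3 calls for DEAB against control, 0 to 1 for RA against DEAB and 0 to 1 for ethanol against control, and for RA against DEAB without clutch C the called member was adh5.L. The cause was not tested. With a prior count of 0.5 the clutch range of rdh9 was 5.24 and that of adhfe1.S 2.82, and the deposited log2 values gave a smaller difference for aldh3a2, as stated above. Counts of 0 to 8 per library limit what can be said of adhfe1.S at 0 h.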
